A study of Mus musculus with 36 samples.

Results

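The 9 genes followed here are widely read as signs of neural progenitors or neurons, and they were measured through the differentiation of Xmas mouse embryonic stem cells (mESCs). They are Nes, Tubb3, Pax6, Sox1, Mtap2 (the older symbol of Map2), Zic1, Sox4, Sox11 and Gng3, chosen by name as 9 of the 25965 genes in the deposited table. Xmas mESCs are female C57/Bl6 lines in which Hprt carries a GFP reporter on one X and an mCherry reporter on the other. They were moved stepwise out of medium with LIF and 2i, the paired inhibitors of MEK and GSK3 that hold cells in the naive state, into DME HiHi, a serum medium without LIF, so that no lineage was directed. RNA was collected daily from day 0 to day 8, with 4 libraries on each of the 9 days and 36 in all. On every day replicate 1 was line X14 with the word double in its title, replicate 2 X14 single, replicate 3 X18 double and replicate 4 X18 single. Neither word is explained in the labels, so both serve here only as names. Nothing states that libraries of different days came from separate differentiations, so p-values measure the spread between these libraries. In the comparisons of days, this spread holds the differences between lines and label words, since each replicate is another combination of them. The rest of it may be technical.

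In neural development, transcription factors set the fate and structural proteins follow. Sox1, Pax6 and Zic1 are factors of the early neural plate and of neural progenitors, while Sox4 and Sox11 form, with Sox12, the SoxC group, which acts in progenitors and young neurons as well as in many tissues that are not neural. Nes (nestin, an intermediate filament protein), Tubb3 (beta-III tubulin) and Mtap2 (a microtubule-associated protein) build the cytoskeleton, and Gng3 is a gamma subunit of heterotrimeric G proteins that is abundant in brain.

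The structural genes went in opposite directions, and no rise of the neural plate factors Sox1, Pax6 and Zic1 was detected. From day 0 to day 8 the level of Nes rose 3.2-fold and those of Tubb3 and Mtap2 fell, to 0.202 and 0.236 times the day 0 level. Sox1 and Zic1 stayed at or near the limit of detection, and Pax6 was low throughout. Sox4 rose 11.2-fold and Sox11 4.34-fold by day 8, and Gng3 rose 5.75-fold by day 5 and was back near its day 0 level on day 8. A gene was called changed where the limma adjusted p (Benjamini-Hochberg over the 14612 genes tested) was under 0.05 and the log2 fold change at least 1 either way. Zic1 was the member that did not pass the filter of 1 RPM (reads per 1000000 reads) in at least 4 libraries, which left 8 members tested. Against day 0, day 8 had 3 of these 8 higher and 2 lower, where 35% of all genes tested were called either way, 23.9% higher and 11.1% lower. Day 2 had 1 member called (2.96% of all genes), day 3 had 2 (8.89%) and day 4 had 3 (18.6%). The count was 5 for day 5 (26.8%), 6 for day 6 (33.4%) and 5 for day 7 (35.4%). Up to day 4 every call was a rise. Day 1 had 0 members called by limma, where 0.0684% of all genes were called, and 1 member had an unadjusted p under 0.05. On day 8 all genes tested had a median log2 fold change of 0.23, and the 8 members one of -0.21.

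**Figure D1:**
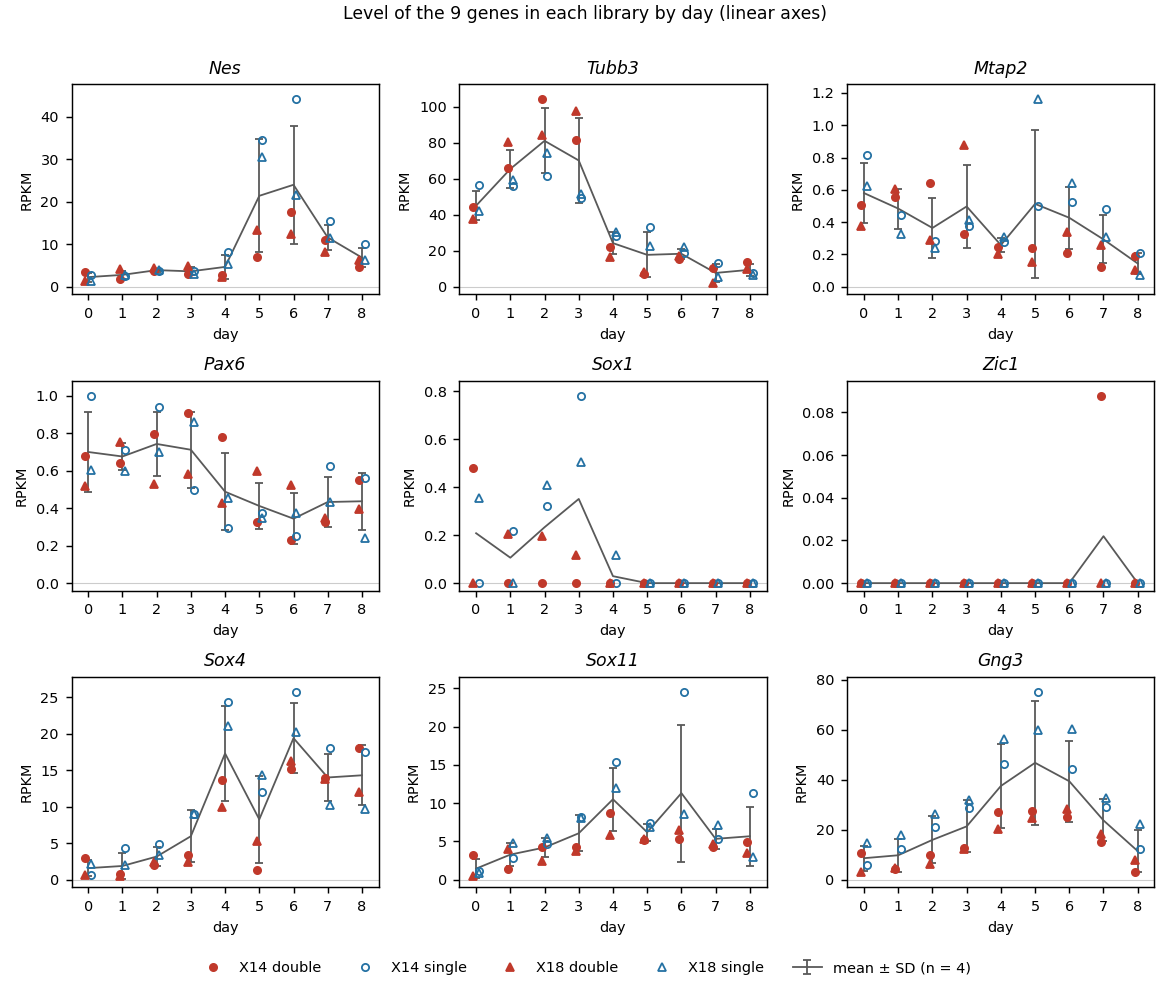
Level in RPKM (linear axes, from 0) against day, 1 panel per gene and 1 point per library, with filled red symbols for double, open blue symbols for single, circles for line X14 and triangles for line X18. Grey lines join the day means and bars show the SD of the 4 libraries (left out for Sox1 and Zic1, which are near 0). Nes peaks on days 5 and 6, Tubb3 peaks on day 2 and then falls, and the Gng3 points of single lie above those of double from day 1.

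Reads in genes ranged from 612740 in the shallowest library (day 5 X14 double) to 2445826. Levels are given in RPKM (reads per kilobase of exon and per 1000000 reads), which allows genes to be compared. A floor of 3 reads in a library stands for 0.216 to 0.807 RPKM of Sox1 and 0.614 to 2.3 RPKM of Gng3, depending on the depth. Floors cover counting error only. The X14 libraries of day 0 went against the pattern of the label words on every other day. The median log2 difference of 569 X-linked genes between double and single, less that of 14042 autosomal genes, was -1.14 in X14 on day 0, and lay between 0.3 and 1.05 on days 1 to 8 of X14 and between 0.25 and 1.02 in X18. These libraries were left in. The members' changes from day 0 were also computed without them, and the label differences without day 0, while the differences in change between lines or labels and the list counts were not.

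On day 0 the order of levels was led by Tubb3 at 45 ± 8.16 RPKM (SD, n = 4), followed by Gng3 at 8.55 ± 5.09, Nes at 2.26 ± 1.07, Sox4 at 1.56 ± 1.14, Sox11 at 1.43 ± 1.22, Pax6 at 0.7 ± 0.213 and Mtap2 at 0.58 ± 0.187. Only Tubb3 stood clear of its neighbour, and every later pair of neighbours in the order had overlapping libraries. By day 8 the order had changed to Sox4 at 14.3 ± 4.11, Gng3 at 11.4 ± 8.27, Tubb3 at 9.4 ± 3.32, Nes at 6.86 ± 2.28 and Sox11 at 5.66 ± 3.88 RPKM, each overlapping the next. Pax6 at 0.437 ± 0.152 and Mtap2 at 0.144 ± 0.0648 RPKM followed, and there Sox11, Pax6, Mtap2 and the absent Sox1 did not overlap one another in neighbouring pairs.

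Sox1, which marks the first neural plate cells, had 30 reads in the whole series. Of these, 29 fell on days 0 to 3, in 10 of the 16 libraries of those days, and the highest library (day 3 X14 single) had 8. On day 4 there was 1 read and on days 5 to 8 there were 0 reads in 16 libraries, which together allow up to 0.0261 RPKM. In 33 of the 36 libraries Sox1 was at or under the floor of 3 reads, so no fold is given. Zic1, a zinc finger factor of the dorsal neural tube, had 1 read, in the X14 double library of day 7, and 0 reads in the other 35 libraries. The Zic1 reads of all 36 libraries lie under the floor, which over the whole series stands for 0.0095 RPKM.

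Pax6, a paired-box factor of the neural plate and eye, held between 4 and 43 reads per library. Its 4 libraries of day 0 gave 0.677, 1, 0.518 and 0.603 RPKM in replicate order, and those of day 8 gave 0.55, 0.563, 0.395 and 0.24. The groups overlap, and the difference on day 8 did not pass the test (log2 fold change -0.71, SE 0.38, limma adjusted p = 0.126). It passed on day 6 alone (-1.06, SE 0.38, adjusted p = 0.0234), where the libraries gave 0.228, 0.249, 0.523 and 0.375 RPKM. That call was lost without the X14 libraries of day 0 (-0.78, adjusted p = 0.166), without replicate 1, 2 or 4 (adjusted p = 0.108, 0.199 and 0.0594), in a fit of the 2 days alone (adjusted p = 0.114) and with log2(RPM + 1), where it was under the minimum fold (-0.95), while quantile normalization moved the day 8 difference to -1.43 (adjusted p = 0.00257). Under no setting tried did Pax6 rise between day 0 and days 4 to 8. Its 3' exons lie opposite Elp4, a subunit of the Elongator complex read from the other strand, and since the strandedness of the counting is not stated, reads of Pax6 and Elp4 may not be told apart in the overlap. Elp4 had 1430 reads in all, against 620 of Pax6, and its log2 fold change on day 8 was -0.86 (adjusted p = 0.0104).

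Nes lies on chr3:87971078-87980451 of mm10 (plus strand). It stayed low for the first days and then rose. The libraries of day 0 gave 3.53, 2.74, 1.28 and 1.46 RPKM and those of day 4 gave 2.72, 8.27, 2.28 and 5.42, which overlap (log2 fold change 0.98, adjusted p = 0.0943). On day 5 the values were 6.89, 34.6, 13.4 and 30.5 RPKM, and on day 6 they were 17.5, 44.1, 12.5 and 21.7. All 4 libraries of both days lay above all of day 0, with a log2 fold change of 3.1 for day 5 (SE 0.44, adjusted p = 1.21e-06) and of 3.37 for day 6 (SE 0.44, adjusted p = 1.97e-07). By day 8 Nes had come down to 4.69, 10.1, 6.38 and 6.3 RPKM, still above every day 0 library (1.68, SE 0.44, adjusted p = 0.00215). The rise was higher in 4 of 4 same-numbered pairs on each of days 5 to 8. Without the shallowest library the day 5 value was 3.55, and without the X14 libraries of day 0 the day 4 value was 1.58 (adjusted p = 0.016), past the threshold, and the day 8 value 2.27.

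Tubb3, on chr8:123411424-123422015 (plus strand), was the most abundant member on day 0. Its libraries gave 44.1, 56.5, 37.4 and 42 RPKM on day 0 and 104, 61.6, 84.1 and 74 on day 2, with every library of day 2 above those of day 0, but the change did not pass the test (log2 fold change 0.84, SE 0.42, adjusted p = 0.217). On day 4 the level was 21.9, 28.1, 16.6 and 30.3 RPKM, below all of day 0 (-0.92, adjusted p = 0.106). The fall was called from day 5 on (-1.64, SE 0.42, adjusted p = 0.00254), on day 6 only with the X14 libraries of day 0 (-1.3 with them, -1.13 and an adjusted p of 0.0736 without), and on day 8 the libraries held 13.9, 7.54, 9.78 and 6.37 RPKM (-2.31, SE 0.42, adjusted p = 3.44e-05). Tubb3 also fell between day 4 and day 8 (-1.39, SE 0.42, adjusted p = 0.0101), 1 of 2 members called there against a background of 24.7%; without replicate 4 this difference was -1.11 (adjusted p = 0.126). A predicted gene, Gm20388, spans Tubb3 on the same strand with 4179 reads against 4017, and its course was different: its log2 fold change was -1.23 for day 4 (adjusted p = 0.00376) and -0.27 for day 8 (adjusted p = 0.513). How reads were shared between Tubb3 and Gm20388 is not known.

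Mtap2, a protein of dendrites that also has forms in other cells, is spread over 267311 bp of chromosome 1 (chr1:66175273-66442583, plus strand) and was sparsely read, with 389 reads in 36 libraries. It gave 0.506, 0.816, 0.375 and 0.623 RPKM on day 0 and 0.189, 0.207, 0.106 and 0.0723 on day 8, without overlap (log2 fold change -2.08, SE 0.52, adjusted p = 0.00136). The day 8 values rest on 6, 7, 2 and 1 reads. Days 1 to 7 did not pass the test, although day 7 (-1.09, adjusted p = 0.0823) did with scaling to the 75th percentile (-1.27, adjusted p = 0.0398) or quantile normalization (-1.63, adjusted p = 0.0112). On day 5 the X18 single library stood at 1.16 RPKM while the others lay between 0.152 and 0.5.

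**Figure D2:**
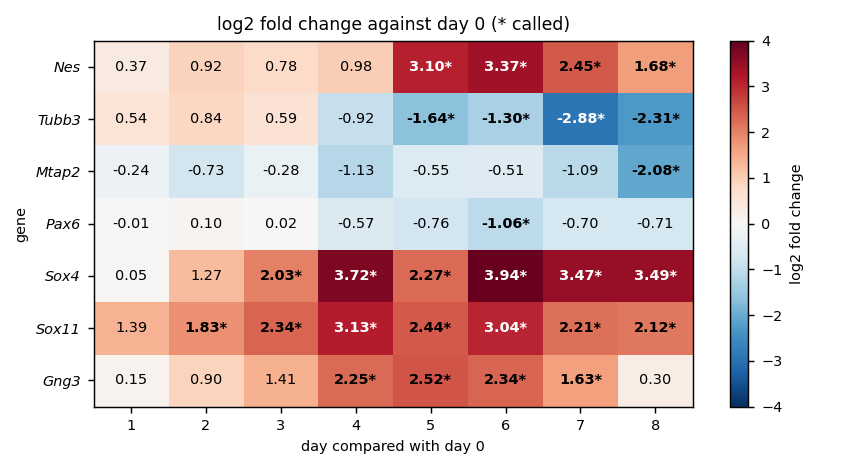
Log2 fold change against day 0 (colour and number) for 7 genes in rows and days 1 to 8 in columns. An asterisk marks a limma adjusted p under 0.05 with a log2 fold change of at least 1 either way. Sox4 is called from day 3 and Sox11 from day 2 to day 8, Nes and Tubb3 from day 5 in opposite directions, and Gng3 from day 4 to day 7.

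Nes, Tubb3 and Mtap2 were set beside a list of 17 other cytoskeletal genes. The list was not screened for neural use, so some of its genes, such as Tubb2b, Tubb4a and Mtap1b, may also serve in neurons. All 17 were tested, and 4 were called higher and 1 lower on day 8, where 35% of all genes tested were called. The median log2 fold change of the 17 was 0.31. Among beta-tubulins Tubb2b fell from 131 ± 35.3 to 41.9 ± 11.5 RPKM (log2 fold change -1.65, SE 0.23, adjusted p = 5.24e-07). Tubb6 rose from 27.5 ± 11.3 to 174 ± 28.9 (2.75, SE 0.22, adjusted p = 5.23e-12), and Tubb4a rose from 0.415 ± 0.831 to 6.08 ± 3.22 (3.47, SE 0.73, adjusted p = 0.00022). The day 0 level of Tubb4a rests on 8 reads, all in X14 double. Tubb5, the main beta-tubulin of these cells, held 670 ± 186 RPKM on day 0 and 779 ± 158 on day 8 (0.24, adjusted p = 0.268). Tubb3 thus fell as Tubb2b did, while Tubb6 and Tubb4a rose.

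Among intermediate filaments, Lmna, the A-type nuclear lamin, rose from 2.24 ± 2.45 to 31.5 ± 13.6 RPKM (log2 fold change 4.47, SE 0.77, adjusted p = 1.61e-05). Vim (vimentin), a filament partner of nestin in many cells, reached 138 RPKM on day 3 and dropped to 38.5 on day 4 and 18 on day 6. The Nes mean of day 6, 24 ± 13.9 RPKM, was thus reached on the day of the lowest Vim mean. The alpha-tubulin Tuba1a was the other called gene of the list (1.14, SE 0.33, adjusted p = 0.00484). Mtap4 and Mtap1b, microtubule-associated proteins related in function to Mtap2, gave 0.67 (adjusted p = 0.0964) and 0.35 (adjusted p = 0.544) and were not called.

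**Figure D3:**
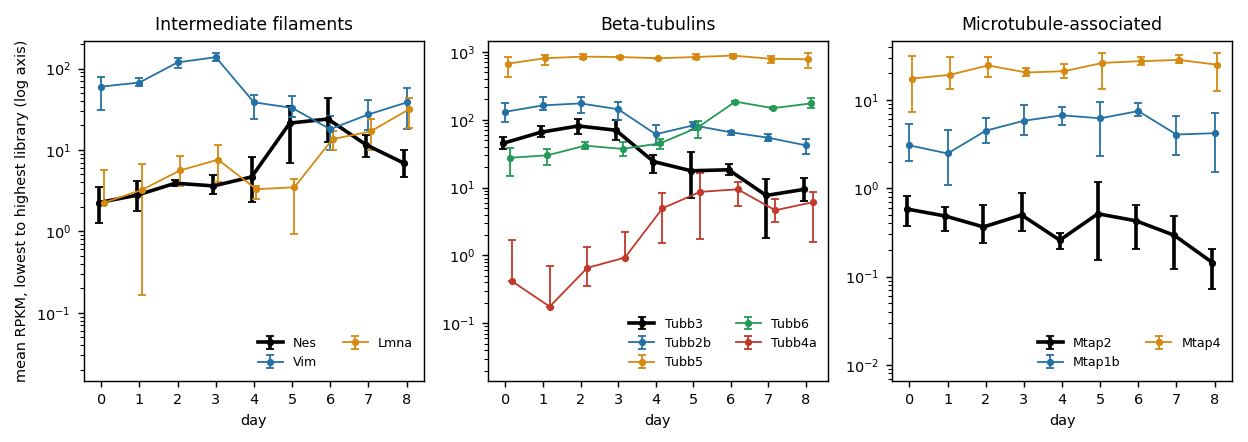
Mean RPKM (log axis) against day for Nes, Tubb3 and Mtap2 (black) beside other genes of the same kind, with bars from the lowest to the highest of the 4 libraries; a lowest library without reads is not drawn. Tubb3 and Tubb2b fall while Tubb6 and Tubb4a rise, and Nes rises on day 5 while Vim falls after day 3.

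Sox4 is a gene with no intron on the minus strand (chr13:28948919-28953713), and Sox11 is likewise read from the minus strand (chr12:27340697-27342709). The 230 bases that end 20 bases before the RefSeq start of Sox4, Sox11 and Gng3 are shown because these were the 3 members called higher on day 4. For Sox4 and Sox11 the RefSeq start is not the gene end given in the deposited table. They come from RefSeq (GRCm38.p6, minus strand for all 3) at chr13:28953720-28953949, chr12:27342739-27342968 and chr19:8839267-8839496. Windows were found for 9 of 9 members. They were searched on both strands for CCAAT (the core of the CCAAT box) and GGGCGG (the core of the GC box), and the matches are in capitals, 5′ to 3′.
Sox4: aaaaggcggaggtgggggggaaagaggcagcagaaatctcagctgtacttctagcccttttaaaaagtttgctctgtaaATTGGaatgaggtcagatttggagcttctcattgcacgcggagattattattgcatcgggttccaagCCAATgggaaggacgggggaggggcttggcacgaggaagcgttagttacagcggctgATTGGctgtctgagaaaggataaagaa
Sox11: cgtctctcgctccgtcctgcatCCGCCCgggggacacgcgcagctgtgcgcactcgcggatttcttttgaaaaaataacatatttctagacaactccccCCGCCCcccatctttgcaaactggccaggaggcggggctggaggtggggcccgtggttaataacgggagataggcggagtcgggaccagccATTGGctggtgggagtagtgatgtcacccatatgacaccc
Gng3: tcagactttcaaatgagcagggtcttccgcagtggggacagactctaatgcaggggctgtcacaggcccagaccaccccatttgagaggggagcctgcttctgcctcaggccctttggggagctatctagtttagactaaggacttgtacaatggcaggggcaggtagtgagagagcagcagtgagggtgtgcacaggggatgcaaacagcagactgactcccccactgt
Sox4 has 3 CCAAT matches and 0 GGGCGG matches, Sox11 has 1 and 2, and Gng3 has 0 of either. No match overlaps another. Of 32851 RefSeq windows of the same length 32.2% hold CCAAT and 29.8% hold GGGCGG, so either motif is common, and the 3 genes do not share one.

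The level of Sox4 in replicate order was 2.89, 0.579, 0.643 and 2.14 RPKM on day 0 and 13.7, 24.3, 9.98 and 21 on day 4, with no overlap (log2 fold change 3.72, SE 0.62, adjusted p = 2.49e-05). It was called from day 3 to day 8, although the day 3 call was lost without replicate 2, 3 or 4 (adjusted p = 0.212, 0.12 and 0.149) and the day 5 call without replicate 2 (adjusted p = 0.0846). Day 5 held 1.36, 12, 5.34 and 14.3 RPKM, the lowest in the shallowest library, where it rests on 5 reads, and without that library the day 5 value moved from 2.27 to 2.98 (adjusted p = 0.000162). On day 8 the libraries gave 18, 17.5, 12 and 9.68 RPKM (3.49, SE 0.62, adjusted p = 2.35e-05). The day 8 level was near that of day 4, with a difference of -0.24 (SE 0.62, adjusted p = 0.811).

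Sox11 started from few reads. Its day 0 libraries held 14, 5, 1 and 2 reads (3.22, 1.15, 0.511 and 0.848 RPKM), so that X18 lay at or under the floor. It rose to 8.68, 15.4, 5.87 and 12 RPKM on day 4 (log2 fold change 3.13, SE 0.49, adjusted p = 9.33e-06) and stood at 4.9, 11.3, 3.46 and 2.95 on day 8 (2.12, SE 0.49, adjusted p = 0.000629). Without the X14 libraries of day 0 these values were 3.9 and 2.89. All libraries of days 3 to 7 lay above those of day 0, while day 8 overlapped it through X18 single. The day 2 call (1.83, adjusted p = 0.0298) was lost under 8 other settings, while the day 4 to day 8 calls held under every setting tried. Sox12, the other SoxC gene, rose on day 4 (1.57, SE 0.32, adjusted p = 0.000351), with 0.53 for day 8 (adjusted p = 0.169).

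Gng3, on chr19:8836929-8839246 (minus strand), rose and came back. Its libraries gave 10.6, 6, 3.02 and 14.6 RPKM on day 0, then 26.9, 46.5, 20.2 and 56.4 on day 4 (log2 fold change 2.25, SE 0.56, adjusted p = 0.00303). On day 5 they gave 27.5, 75.1, 24.6 and 60.1 (2.52, SE 0.56, adjusted p = 0.000591). Days 4 to 7 lay wholly above day 0, and the day 7 call (1.63, adjusted p = 0.0167) was lost without replicate 2 (1.41, adjusted p = 0.108) or 3 (1.31, adjusted p = 0.107). On day 8 the values were 3.06, 12.3, 7.68 and 22.4 RPKM, across the range of day 0 (0.3, SE 0.56, adjusted p = 0.692). The fall from day 4 to day 8 passed the test (-1.95, SE 0.56, adjusted p = 0.00687); without replicate 1 it was -1.55 (adjusted p = 0.0612). Bscl2, which codes for seipin, a protein of lipid droplets, overlaps Gng3 on the other strand and had 1948 reads against 2274. Bscl2 was called higher from day 2 to day 8, at 1.65 for day 4 (adjusted p = 0.000437) and 1.47 for day 8 (adjusted p = 0.000637), and its difference between day 4 and day 8 was -0.18 (adjusted p = 0.732). What Bscl2 reads add to the Gng3 value was not tested. Among 10 other gamma subunits 8 were tested and 2 called on day 8, where 35% of all genes were called. Both were higher: Gng2 at 3.35 (SE 0.37, adjusted p = 6.33e-09) and Gng12 at 2.15 (SE 0.33, adjusted p = 3.04e-06).

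Gng3 was the member called between the label words. With day and line as covariates, Gng3 was 0.413 times as high in double as in single (log2 difference -1.28, SE 0.15, limma adjusted p = 5.95e-07), 1 member of 8, against 2.99% of all genes called either way and 0.944% called lower. Gng3 was lower in double in 17 of 18 pairs of the same line and day, the exception being X14 on day 0 (0.82), and in 16 of 16 pairs of days 1 to 8. On those days the difference lay between -2.01 and -0.79 in X14 and between -2.09 and -0.84 in X18. In line X18 alone it was -1.55 (adjusted p = 2.16e-05). In X14 alone it was -1 (adjusted p = 0.124), a fit in which 0 of 14612 genes were called, and in X14 without day 0 it was -1.23 (adjusted p = 0.000264). Bscl2 gave -0.3 (adjusted p = 0.186) in the same test. In all label tests, here and below, the pairs are lines X14 and X18 sampled again on each day. Whether libraries of different days are independent is not known, so the p-values and pair counts may overstate the replication.

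Sox4, Sox11 and Nes were also lower in double by an adjusted p under 0.05, but under the minimum fold: Sox4 by a log2 difference of -0.91 (SE 0.25, adjusted p = 0.0101), Sox11 of -0.62 (SE 0.2, adjusted p = 0.0308) and Nes of -0.54 (SE 0.19, adjusted p = 0.0425). With no minimum fold, 15.7% of all genes tested passed, and 8.62% of all genes passed as lower in double. Without day 0 Sox4 passed as well (-1.06, adjusted p = 0.000754), and on days 1 to 4 alone it was -1.47 (adjusted p = 0.000179) against -0.66 (adjusted p = 0.25) on days 5 to 8. Nes showed the reverse order, -0.28 (adjusted p = 0.502) on days 1 to 4 and -0.96 (adjusted p = 0.00953) on days 5 to 8; whether the early and late differences differ was not tested. Of all genes, 4.54% were called between the labels without day 0, 7.79% on days 1 to 4 alone and 4.68% on days 5 to 8 alone. Sox11 was lower in double in 15 of 16 pairs of days 1 to 8, Sox4 in 13 and Nes in 11. How many of all genes were lower in as many pairs, here or for Gng3, was not counted. Tubb3 (-0.18, adjusted p = 0.572), Mtap2 (-0.37, adjusted p = 0.319) and Pax6 (0.04, adjusted p = 0.913) did not pass, and Tubb3 was lower in double in 8 of 16 pairs.

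The 6 naive pluripotency genes had a median log2 difference of 0.46 between double and single, with 4 at an unadjusted p under 0.05 and 0 called by limma. Their median was 1.41 in X14 and 1.31 in X18 on day 4, 0.07 and 0.77 on day 5, and 1.21 and 1.05 on day 6. The X-linked balance above also moves with the words. The part of either in the label differences of Gng3 and Sox4 was not tested.

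**Figure D4:**
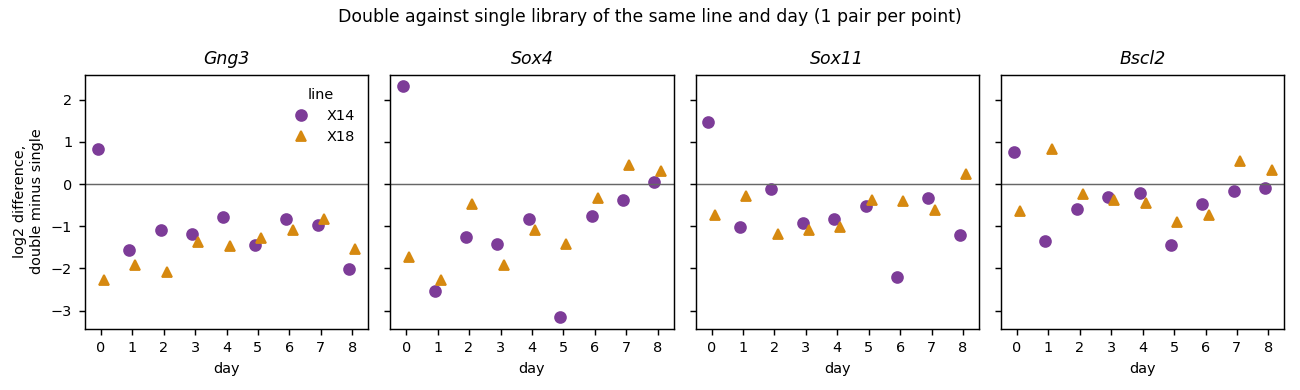
Log2 difference between the double and the single library of the same line and day (1 pair per point, circles X14, triangles X18) against day, for Gng3, Sox4, Sox11 and Bscl2. All 16 Gng3 points of days 1 to 8 lie under 0, and the X14 points of day 0 lie above 0 in every panel.

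Between the lines, limma called 0 of 8 members (background 0.0137%), with 0 at an unadjusted p under 0.05 and 0 by voom. The log2 differences of X14 against X18 lay between -0.14 and 0.32. A different change from day 0 to day 8 in X14 and X18 was called for 0 members (0.137%), with 1 at an unadjusted p under 0.05, Gng3 (-1.36, SE 0.63, adjusted p = 0.338), and voom called 0. Between double and single it was called for 0 members (0.116%), with 0 at an unadjusted p under 0.05 and 0 by voom. Each line or label has 2 libraries on a day, and the SE of the difference between lines was 0.63 for Gng3 and 1.12 for Sox4 on the log2 scale.

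The levels of other neural genes were read from lists. Over all genes tested 18.6% were called on day 4 and 35% on day 8. Of 28 neural progenitor genes 19 were tested, with 6 called higher and 2 lower on day 4 (median log2 fold change 0.57), and 6 higher and 4 lower on day 8 (median 0.02). The largest rises were those of Otx2 (5.33, adjusted p = 1.26e-11), Prom1 (4.82, adjusted p = 4.67e-09) and Pou3f1 (4.43, adjusted p = 1.42e-08). Their sizes are rough, as the day 0 libraries together held 5 reads of Otx2, 19 of Prom1 and 13 of Pou3f1. Otx2 and Pou3f1 are factors of the epiblast as well as of the neural plate, and both were higher on day 4, at 79.5 ± 8.06 and 69.4 ± 30.6 RPKM, than on day 8, at 13 ± 8.55 and 13.9 ± 6.02. Gbx2, a factor of the hindbrain border that naive mESCs also express, fell (-4.74, adjusted p = 2.36e-09). In 15 of the 28 no library of day 8 had more than 3 reads, and the share of all genes with so few was not counted. The progenitor genes Hes5 and Neurog2 had 0 reads in all 36 libraries, and Hes3, Pou3f2 and Rfx4 had 0 on day 8. These genes were named after their values were seen. Many genes of any kind were unread: 8528 of the 25965 genes had 0 reads in every library, and 49.29% of all values were without a read.

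Sox2 and Sox3, relatives of Sox1 in the SoxB1 group, did not rise on day 8. Sox2, which pluripotent cells and neural progenitors share, fell from 141 ± 56.6 to 19.7 ± 5.63 RPKM (log2 fold change -2.8, SE 0.26, adjusted p = 1.67e-10), and Sox3 gave -1.5 (adjusted p = 0.086). Of 5 SOX relatives 4 were tested and 2 called, both lower, the other being Sox21 (-1.79, adjusted p = 0.00684). Of all genes tested 35% were called on day 8. Unlike Zic1, its relatives Zic2 and Zic5 were read from day 0 on. Zic2 went from 12.5 ± 5.6 RPKM on day 0 to 12.7 ± 6.65 by day 8 (a log2 difference of -0.01, adjusted p = 0.989), and Zic5 gave 6.6 ± 2 and 5.67 ± 3.25 RPKM (-0.4, adjusted p = 0.443). Zic4 had 0 reads.

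Of 22 neuronal genes 14 were tested, and more were called on day 4 than on day 8. On day 4, 6 were called higher and 3 lower (median log2 fold change 0.04; 18.6% of all genes were called), among them Ina, a neuronal intermediate filament protein, which rose from 0.969 ± 0.454 to 12.3 ± 3.83 RPKM (3.75, SE 0.64, adjusted p = 4.15e-05), and Neurod1, a neurogenic factor, which rose from 0.339 ± 0.415 to 3.33 ± 1.41 (2.73, SE 0.66, adjusted p = 0.0025). By day 8 these stood at 0.702 ± 0.777 and 0.0921 ± 0.106 RPKM. The day 0 level of Neurod1 rests on 8 reads. The calls of the list against day 0 were then 2 upward and 3 downward (median -0.59), where 35% of all genes were called. Gap43, a growth cone protein, rose (4.07, SE 0.58, adjusted p = 8.06e-07), as did Syp (synaptophysin, 3.85, SE 0.5, adjusted p = 1.33e-07). Every day 0 library was under the floor for both, with 2 reads of Gap43 and 3 of Syp in all, so these folds are rough. Stmn2, a regulator of microtubules, fell from 202 ± 71.9 to 33.4 ± 20.1 RPKM (-2.78, adjusted p = 8.31e-08), and Mapt (tau, -2.09, adjusted p = 0.0146) and Nefl (a neurofilament subunit, -1.6, adjusted p = 0.00169) fell with it. Stmn2 was thus a neuronal marker that stood above Tubb3 on day 0, in naive cells. In 13 of the 22 no library of day 8 had more than 3 reads, again without a count over all genes. Dcx, Nhlh1, Neurod4 and Myt1 had 0 reads in all 36 libraries, as had 8528 of all 25965 genes, and Rbfox3 had 0 on day 8. The summed level of the list ran from 366 to 680 RPM over the libraries of day 0 and from 87.7 to 159 on day 8.

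Genes of other fates were counted in the same way on day 8, where 35% of all genes tested were called and 23.9% were called higher. Of 6 mesoderm genes tested 2 were called higher on day 8, T (5.85, adjusted p = 2.38e-09) and Hand1 (6.3, adjusted p = 9.55e-08), and the summed level of that list lay between 0 and 7.87 RPM on day 0 and between 94.9 and 265 RPM on day 8. Of 5 endoderm genes tested 1 was called higher, Foxa2 (3.54, adjusted p = 4.55e-06). The 4 libraries of day 0 together held 4 reads of T, 0 of Hand1 and 0 of Foxa2. The size of these folds therefore depends on the depth and on the value set for a gene without reads (0.9 read). Of 3 neural crest genes tested Erbb3 was called higher (2.04, adjusted p = 0.00031) and Foxd3 lower (-1.97, adjusted p = 0.00617), with 0 reads of Tfap2b. Of the muscle list 0 of 1 tested gene was called by limma (Des, with a log2 fold change of 0.86 and an adjusted p of 0.248; 0 had an unadjusted p under 0.05), and of the endothelial list both tested genes, Pecam1 (which naive mESCs express as well) and Tek, were lower. All 6 naive genes were lower, by a median log2 fold change of -3.18, and their summed level lay between 330 and 669 RPM on day 8. On that day Pou5f1, which primed cells express as well, averaged 211 RPM and Nanog 152 RPM of it. In bulk RNA a smaller number of cells of a type and less RNA per cell cannot be told apart. The part of cell composition in the course of Nes, Tubb3, Sox4 and Gng3 was not tested.

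The 3 genes most like each member over the 36 libraries, by Pearson's r of log2 values among 9402 other genes that averaged 10 RPM or more, are a description only, since all share the same libraries and the same days. For Nes they were Pawr (r = 0.91), Lpcat1 (0.88) and Cyfip2 (0.88). For Tubb3 they were Naa50 (0.89), Pcsk6 (0.88) and Rpp25 (0.87). Sox4 was followed most closely by Phf15 (0.95), Unc5b (0.94) and Cd276 (0.93). For Sox11 the genes were Jub (0.87), Dnmt3b (0.87) and Hdgf (0.85), and for Gng3 they were Isyna1 (0.9), Gnpat (0.9) and Crmp1 (0.88). Pax6 had lower values, with Klf4 (0.75), a naive pluripotency factor, first, then Manba (0.74) and Kcnk5 (0.74). None of the 18 genes is another member.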

How the data were processed

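Single-end RNA-seq reads were trimmed with trim_galore and aligned by the authors to mm10 with tophat (TopHat2 2.0.12 in the submitters' processing notes) or hisat2, then quantified with SeqMonk; the annotation version and the use of strand are not given in the sources used here. The deposited values are log2 RPKM, although the table calls them log CPM, and a gene without reads was written as if it had 0.9 read. On this rule 100% of values resolved to whole reads (tolerance 0.05). All 36 columns were mapped and 0 were left over.

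Day was the only factor in limma 3.58.1 (lmFit, eBayes with trend, R 4.3.3) over 36 libraries and 14612 genes with at least 1 RPM in at least 4 libraries. Labels were compared with day and line as covariates, lines with day and label, and changes between lines or labels by interactions. Tests were two-sided. The steps were tested on simulated data.

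The members and lists were chosen with earlier results of these data known. All members were named; of lists, called genes with the largest change that reached 10 RPM on either day, and any gene of the SOX, ZIC, gamma subunit, cytoskeletal and naive lists. Genes overlapping a member, the lists' genes at 0 reads, and Nefl, Ina, Neurod1, Foxa2 and Foxd3 were named after their values were seen. Same-numbered libraries are the same line and label on every day, so the numbers pair libraries by cell line. The median correlation of their deviations from the day means was 0.13 to 0.19 per number. Some items are not reported here.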

Additional observations from a re-analysis of the deposited data

Results flagged for a closer look

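In 3 of 63 groups of 4 libraries (7 members on 9 days) the gap of an end value to its nearest neighbour exceeded Dixon's critical value for 4 samples, as a share of the range. Chance alone gives about 1 in 20 such groups. For Pax6 on day 5, X18 double held 0.598 RPKM and the others 0.328 to 0.373. Mtap2 stood apart on day 2, where X14 double held 0.641 RPKM against 0.242 to 0.291, and on day 3, where X18 double held 0.876 RPKM against 0.324 to 0.415. All of these values are low, and no call of Pax6 or Mtap2 falls on those days. No member passed the test of a difference between lines or between labels in the change from day 0 to day 8. These tests used the X14 libraries of day 0 and were not repeated without them.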

How the results depend on the processing

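Over the alternatives run, 3 to 4 members were called on day 4 against day 0, 4 to 7 on day 6 and 4 to 7 on day 8. On day 2, where Sox11 was the 1 call, the count was 0 under quantile normalization, with log2(RPM + 1), with voom, with reads thinned to the shallowest library and in a fit of the 2 days alone, 2 without the X14 libraries of day 0, and 0 to 2 when a replicate was left out. Between day 4 and day 8 it was 1 of 2 after thinning and 1 to 2 without a replicate. Between the labels it was 4 with no minimum fold change (15.7% of all genes called), 2 without day 0 (Gng3 and Sox4; 4.54%), 0 in line X14 alone (0%), 2 in X14 alone without day 0 (3.87%), and 3 on days 1 to 4 alone (Gng3, Sox4 and Sox1, the last with 30 reads in the series; 7.79%). The differences in change between lines and between labels each gave 0 to 1 without a replicate. Directions turned for Gng3 on day 8 (0.3, but -0.15 under quantile normalization and -0.05 without replicate 3), and between labels on days 1 to 4 alone for Tubb3 (0.25) and Mtap2 (0.35). The causes were not tested, beyond the fewer libraries or reads in some of these fits. The replicate block left 1, 3, 6 and 5 members called on days 2, 4, 6 and 8, and 2 between days 4 and 8. It kept the calls of Sox4 and Sox11 on day 3, and changed no call on days 5 and 7 of the members other than Sox1 and Zic1. The remaining members were not followed under it on days 1 and 3. For Gng3 the block lowered the limma adjusted p of day 7 from 0.0167 to 4.14e-05. The alternatives without the X14 libraries of day 0, without the shallowest library and on parts of the days were chosen after seeing the data. Depth limits Sox1, Zic1, Mtap2 and the day 0 levels of Sox11 and Sox4, whose values rest on few reads. In replicate order Sox4 held 30, 6, 3 and 12 reads on day 0.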
